A study of Mus musculus with 3 samples.

Results

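The genes described here encode components of the spliceosome and the heterogeneous nuclear ribonucleoproteins (hnRNPs). They are the protein-coding genes of GENCODE vM39 whose symbol starts with Hnrnp, Rbm and a digit, Sf3a or Sf3b, Snrp, Snrnp, Prpf or Luc7l, and there were 103 of them among 21594 protein-coding genes. Contacts of the splicing regulator Tra2β with RNA had been mapped by iCLIP in testes of adult wild type mice, minced to release germ cells, as 1 group of 3 biological replicates. In iCLIP, ultraviolet light joins a protein to the RNA it touches, an antibody (here a polyclonal one against Tra2β) pulls the protein down, and the end of each cDNA marks the crosslinked nucleotide. Input, IgG and knockout libraries were not analysed here, and an exon or intron was set against other sequence of the same gene in the same library. A crosslink below is 1 unique cDNA at 1 nucleotide.

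The spliceosome is built anew on every intron. U1 snRNP pairs with the 5' splice site, U2 snRNP with its SF3 proteins marks the branch point, and the U4/U6.U5 tri-snRNP then joins and is rearranged into the active enzyme, while hnRNPs and RNA-binding motif (RBM) proteins coat the pre-mRNA and steer the choice of splice sites. Tra2β is an SR-like protein that binds GAA-rich RNA and activates exons from within. Many splicing factors hold their own level, or that of a relative, by switching in a poison exon that sends the mRNA to nonsense-mediated decay (NMD), and the question put to these genes was whether Tra2β contacts such exons or other exons of them.

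The libraries held 348033, 619571 and 488719 crosslinks in replicates 1, 2 and 3, of which 231525, 320931 and 352064 fell in protein-coding genes. Levels are given as CPM, crosslinks scaled to 1000000 of the latter, and 1 crosslink was worth 4.32, 3.12 and 2.84 CPM. A count of 0 allows up to 3 crosslinks, or 13.0, 9.35 and 8.52 CPM. Exons of coding transcripts held 59.9%, 52.1% and 70.7% of the crosslinks of the 103 genes, lowest in replicate 2 and highest in replicate 3, and results that rest on 1 library are named as such. All 10 germ cell markers looked up had exonic crosslinks, from a summed 894 CPM in replicate 2 to 4190 CPM in replicate 3. Of 10 markers of other cells, 7 had any, at 151, 99.7 and 136 CPM in all, and Ptprc (leukocytes), Amh (immature Sertoli cells) and Alb (liver) had none. In a mixture of cells, more cells of a type, more RNA in each cell and more binding per RNA cannot be told apart, so levels of genes below are levels of crosslinked RNA.

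Exonic crosslinks were found in 98 of the 103 genes (95.1%) and in 13860 of the 21491 other protein-coding genes (64.5%). At least 20 exonic crosslinks over the 3 libraries were found in 53 of the 103 (51.5%), against 18.4% of the others. The 103 genes held 1345, 1369 and 2915 exonic crosslinks in replicates 1, 2 and 3. This was 1.29%, 1.49% and 1.44% of all exonic crosslinks of protein-coding genes, in 0.560% of their exonic sequence. Their median was 23.0 CPM, against 2.39 CPM in the others, and 4.32 against 0.60 CPM per kb. The 90 other splicing genes on a list outside the name rule, among them the Srsf genes and Ptbp1, had a median of 29.8 CPM. No test was made of these differences, because the amount of each RNA in the testis was not measured.

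Hnrnpu, which encodes a nuclear matrix protein that binds RNA and chromatin, led the list. It had 195, 107 and 565 exonic crosslinks in replicates 1, 2 and 3, or 927 ± 640 CPM (SD, n = 3), and ranked 21 among all protein-coding genes. Replicate 3 was the highest and replicate 2 the lowest, and the gene alone held 867 of the 5629 exonic crosslinks of the group. Its 12 internal exons make up 22.6% of its exonic sequence but held 64.6%, 57.0% and 73.1% of its exonic crosslinks, and 10 of them lay above the rest of the transcript in every library. That count uses the fold described below, with 0.5 crosslinks added to each side, and a reference that includes the first and last exons. Against internal exons alone, the log2 folds of exons 6 and 10 were 0.72 and 0.52, beside 2.26 and 2.07. Without Hnrnpu the other 102 genes held 1.11%, 1.38% and 1.16% of exonic crosslinks.

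Among components and partners of U1 snRNP, Rbm25, which encodes a U1-associated regulator of alternative splicing, was the highest. It had 96, 103 and 198 exonic crosslinks (415, 321 and 562 CPM, 433 ± 122), with replicate 3 the highest. Luc7l2 and Luc7l3, homologues of the yeast U1 protein Luc7, had 140 ± 10.5 and 134 ± 39.9 CPM. The 10 genes of this group had 6.50 ± 2.80 exonic crosslinks per kb, the densest of the groups by role, while the core U1 proteins differed widely: Snrnp70 had 87.2 ± 13.8 CPM and Snrpa a single exonic crosslink in all. Of the exonic 31-nt stretches of Snrpa, 37.4% occur elsewhere in the genome, against 0.0220% for Snrnp70. Whether Snrpa lost reads with several matches was not tested.

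In the U2 snRNP group the large SF3 subunits carried most of the signal. Sf3b2 had 35, 50 and 102 exonic crosslinks (199 ± 78.7 CPM) and Sf3b1, whose product clasps the branch point helix, had 28, 26 and 92 (154 ± 94.7 CPM). Both were highest in replicate 3. Of the 12 genes only 4 had at least 20 exonic crosslinks, and the small subunit genes Sf3b4 and Sf3b5 had 1 each. Of the exonic 31-nt stretches of Sf3b4, 51.0% occur elsewhere in the genome, against 4.83% for Sf3b5, which limits the count of Sf3b4. In the tri-snRNP and later group, Prpf38b, a relative of a factor of spliceosome activation, had 18, 64 and 64 (153 ± 65.8 CPM), with replicate 1 the lowest. Prpf4b, a kinase of the spliceosome, had 106 ± 17.5 CPM and Snrnp200, the helicase that unwinds U4 from U6, had 105 ± 64.0 CPM. The 8 Sm core genes, whose proteins form the ring around the snRNAs, had 14, 5 and 11 exonic crosslinks between them, 0.422 ± 0.193 per kb. The same limit holds for some of them, with 28.2% of such stretches found elsewhere for Snrpg and 18.4% for Snrpe, but 1.09% for Snrpd3. The 3 genes of the minor U11/U12 spliceosome had 5, 12 and 13.

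The 20 Hnrnp genes all had exonic crosslinks, and 17 had at least 20. After Hnrnpu came Hnrnpul1, a relative of it, with 42, 22 and 95 (173 ± 101 CPM), then Hnrnpa2b1 with 132 ± 22.2 CPM, Hnrnph1 with 118 ± 33.3 and Hnrnpl with 118 ± 39.4. The last 3 differed by less than their spread. Of the 35 other Rbm genes, 3 stood among the 10 highest members. Rbm26, which encodes a zinc finger protein linked to nuclear RNA decay, had 68, 63 and 148 exonic crosslinks (303 ± 112 CPM). Its paralogue Rbm27 had 41, 18 and 182 (250 ± 239 CPM), a value set mainly by replicate 3. Rbm28, a nucleolar protein of ribosome biogenesis, had 66, 16 and 134 (239 ± 170 CPM). Per kb of exon, the 5 highest members were Hnrnpu (121 ± 83.8 CPM per kb), Rbm25 (58.5 ± 16.5), Prpf38b (50.3 ± 21.6), Rbm28 (49.1 ± 35.1) and Rbm27 (38.8 ± 37.0), and their ranges over the libraries overlapped. No exonic crosslink was found in Rbm41 (7596 nt of exon), Rbm24, Rbm38, Rbm31y or Rbm8a2. All 31-nt stretches of Rbm31y are also found elsewhere in the genome, so a 0 there says little.

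**Figure D1:**
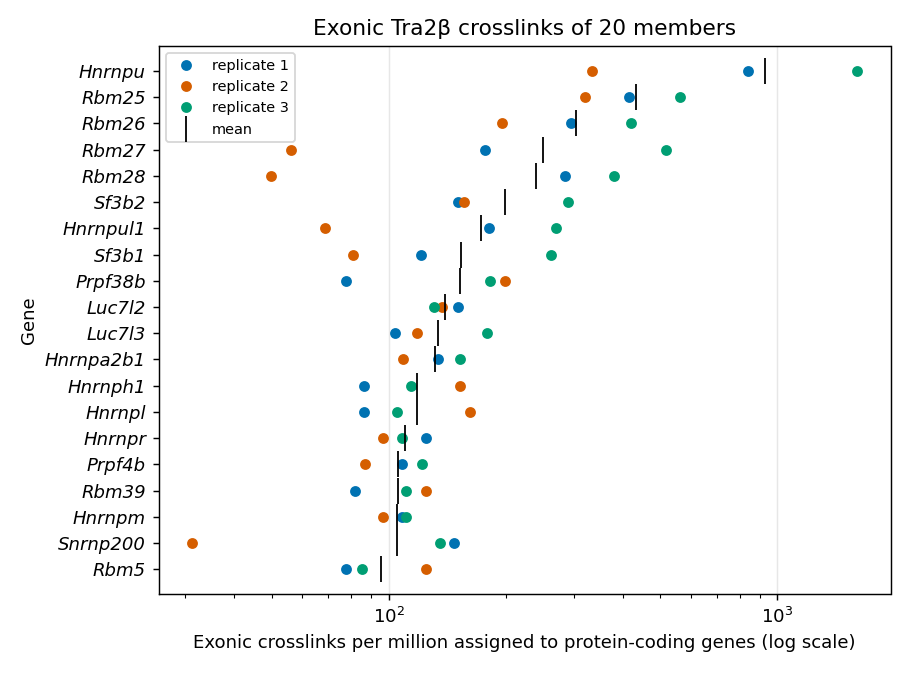
Exonic crosslinks in CPM (log axis) of 20 members with high means, 1 point per replicate and a black tick at the mean. Hnrnpu ranges from 333 to 1605 CPM, while Luc7l2 (131 to 151 CPM) and Hnrnpm (96.6 to 111 CPM) vary little; replicate 2 is the lowest point for Rbm27, Rbm28 and Snrnp200.

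Crosslinks of these genes lay in exons more densely than in introns. Exons of coding transcripts held 2.44, 2.48 and 5.29 crosslinks per kb in replicates 1, 2 and 3, and introns 0.302, 0.420 and 0.393. Within exons the coding sequence was the densest, with 5.31, 5.95 and 12.2 per kb, against 1.01, 0.791 and 2.01 in 3' UTRs. The exon to intron ratio was 8.09, 5.91 and 13.5, beside 8.50, 4.11 and 14.3 in all other protein-coding genes, so that the gap between the groups was smaller than the spread between libraries and changed sign among them. Exon sequence of these genes outside coding transcripts and outside NMD-only exons is called exons of non-coding transcripts below. It includes first and last exons of NMD transcripts and the exons of every other transcript type of the gene. Models with a retained intron were not set apart, so the class can hold intron sequence of coding transcripts. Whether its crosslinks come from pre-mRNA or from separate RNAs was not tested. This class held 9.67%, 12.1% and 7.76% of their crosslinks, against 3.07%, 3.13% and 2.80% in the other genes. Such sequence is also more plentiful in them, at 7.55% of their bases against 2.27%.

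**Figure D2:**
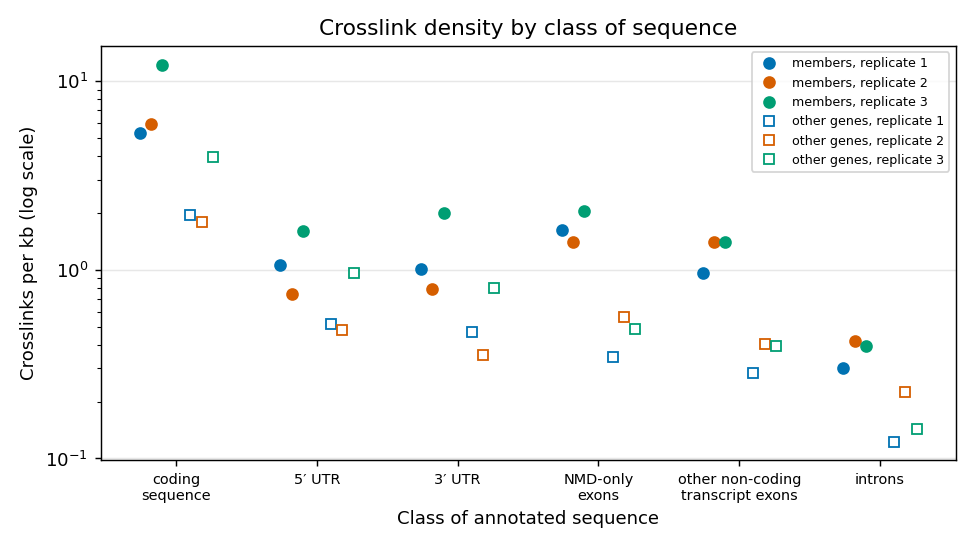
Crosslinks per kb (log axis) in 6 classes of annotated sequence, filled circles for the 103 genes and open squares for all other protein-coding genes, 1 point per replicate. In every class and library the 103 genes lie above the others; the order of classes runs from coding sequence, at 5.31 to 12.2 per kb in the 103 genes, down to introns, at 0.302 to 0.420.

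Gene by gene, exonic and intronic density were compared with a two-sided exact binomial test in each library, adjusted over all protein-coding genes with at least 20 crosslinks, and calls required an adjusted p under 0.05 in each of the 3 libraries, all in 1 direction. Of 59 members tested, 34 had denser exons (57.6%) and 0 denser introns, the latter also 0 at an unadjusted p under 0.05. Across all 6951 genes tested the share with denser exons was 34.7%. The members tested had a median of 81.0 crosslinks against 59.0 over all genes, and their median log2 exon over intron fold was 2.44 against 2.35. By library these medians were 2.16, 2.23 and 2.84 against 2.42, 1.83 and 2.81, so the members were lower in replicate 1 and higher in the other two. The called genes were 9 of 16 hnRNP genes tested, 5 of 8 U1 genes, 4 of 5 U2 genes, 5 of 10 tri-snRNP genes, 11 of 17 other Rbm genes and 0 of 3 Sm core and minor spliceosome genes. The log2 fold was 3.33 ± 0.71 for Hnrnpu (largest adjusted p 9.31e-12), 3.77 ± 0.67 for Rbm25 (4.92e-37) and 4.90 ± 1.82 for Rbm27 (1.23e-07). At the low end, Hnrnpf had a log2 fold of -0.13 ± 0.17 and Hnrnpd one of 0.30 ± 0.62.

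Single exons were then set against the other exons of the canonical transcript. Each internal exon was tested per library with the same exact binomial test on lengths, and the log2 fold is that of crosslinks per nt with 0.5 crosslinks added to each side. The addition raises the fold of exons with few crosslinks: the median over the members' exons was 1.11, against -0.04 when 0.5 was added to the observed and the expected crosslinks of the exon instead. Of 624 internal exons of members tested, 2 were called as denser than the rest of the transcript (0.321%) and 0 as less dense (16 and 0 at an unadjusted p under 0.05 in all 3 libraries). Across all protein-coding genes 0.193% of 51233 internal exons were called as denser, so the share among the members was near that background. The members also had 80 internal exons of other coding transcripts that overlap no canonical exon. Of these, 30 could be tested and 0 were called, beside 0.112% called as denser of 3582 over all protein-coding genes. The canonical exons called were exon 7 of Rbm28 and exon 5 of Hnrnpd. They are printed here from the GRCm39 genome with every GAA, the core of the known Tra2β motif, in capitals. Exon 5 of Hnrnpab is added as the paralogous exon of Hnrnpd exon 5, and 3 exons of Luc7l2, Luc7l3 and Rbm25 as the members' exons with the lowest adjusted p in replicate 2. All 6 are coding over their whole length.
Rbm28 exon 7: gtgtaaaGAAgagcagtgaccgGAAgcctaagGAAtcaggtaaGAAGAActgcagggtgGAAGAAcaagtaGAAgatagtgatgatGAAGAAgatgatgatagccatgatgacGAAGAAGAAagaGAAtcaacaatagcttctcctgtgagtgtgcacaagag
Hnrnpd exon 5: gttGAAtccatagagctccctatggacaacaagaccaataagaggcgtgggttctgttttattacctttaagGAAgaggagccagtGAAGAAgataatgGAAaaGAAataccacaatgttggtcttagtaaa
Hnrnpab exon 5: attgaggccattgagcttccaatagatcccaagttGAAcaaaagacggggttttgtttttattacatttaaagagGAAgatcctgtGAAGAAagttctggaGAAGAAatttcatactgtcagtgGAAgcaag
Luc7l2 exon 4: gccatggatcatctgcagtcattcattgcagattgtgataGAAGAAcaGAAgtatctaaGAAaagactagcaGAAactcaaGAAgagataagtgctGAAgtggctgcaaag
Luc7l3 exon 8: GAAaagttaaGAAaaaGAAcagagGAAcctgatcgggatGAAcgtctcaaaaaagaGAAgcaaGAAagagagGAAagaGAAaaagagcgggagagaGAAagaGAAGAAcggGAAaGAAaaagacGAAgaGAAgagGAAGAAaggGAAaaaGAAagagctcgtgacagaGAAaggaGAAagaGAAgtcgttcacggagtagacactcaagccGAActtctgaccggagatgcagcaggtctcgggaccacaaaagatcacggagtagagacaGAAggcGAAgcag
Rbm25 exon 12: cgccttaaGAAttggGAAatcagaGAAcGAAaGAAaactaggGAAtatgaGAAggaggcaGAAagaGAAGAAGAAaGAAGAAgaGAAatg

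Rbm28 exon 7 (chr6:29155026-29155188, minus strand, 163 nt, exon 7 of 19) had 24, 7 and 46 crosslinks in replicates 1, 2 and 3, against 36, 9 and 76 in the other 4311 nt of the transcript. It thus held 40.0% (95% Clopper-Pearson interval 27.6 to 53.5), 43.8% (19.8 to 70.1) and 37.7% (29.1 to 46.9) of the crosslinks of the transcript, nearly the same share in each library. The log2 fold was 4.15, 4.38 and 4.01 (4.18 ± 0.19), with a largest adjusted p of 1.85e-04 in the exact binomial tests. Its sequence above holds 14 GAA and is 71.2% purine. The densest 41 nt, nt 90 to 130 of the exon, held 11, 1 and 26 crosslinks, so that 38 of the 77 lay there but 1 of the 7 in replicate 2. It was still called against internal exons alone, at a log2 fold of 3.30 (largest adjusted p 0.0148, exact binomial). As observed over expected crosslinks the fold was 3.07 on the log2 scale. The next exon, Rbm28 exon 8, had 6, 3 and 23 crosslinks in 140 nt. Its log2 fold of 2.59 ± 0.61 was above 0 in all 3 libraries, and its adjusted p was under 0.05 in replicate 3 alone (1.99e-09).

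Hnrnpd encodes AUF1, an RNA-binding protein known for its part in mRNA decay. Its exon 5 (chr5:100112529-100112660, minus strand, 132 nt) had 3, 5 and 4 crosslinks, against 4, 7 and 11 in the other 7575 nt. Its 12 crosslinks are fewer than the 20 asked of the exons ranked next, and it is named because it was called. The shares were 42.9% (9.90 to 81.6), 41.7% (15.2 to 72.3) and 26.7% (7.79 to 55.1), and the log2 fold was 5.12 ± 0.55 with a largest adjusted p of 0.0267 in the exact binomial tests. As observed over expected crosslinks it was 2.68. Most of the reference lies in the first and last exons, and against internal exons alone (2, 3 and 4 crosslinks in 635 nt) its log2 fold of 2.65 was no longer called, nor was the exon when genes of any count entered the family of tests (largest adjusted p 0.0857, exact binomial). Of the 12 crosslinks, 10 lay within nt 53 to 93 of the exon, where a T-rich stretch is followed by GAA.

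The paralogue Hnrnpab has an exon of the same length at the same place, exon 5 (chr11:51495227-51495358, minus strand), with 89 of 132 nt identical. This exon was looked at after the value of Hnrnpd was seen. It had 4, 4 and 6 crosslinks, against 5, 2 and 6 in the other 1949 nt, and a log2 fold of 4.07 ± 0.59. The adjusted p was 0.126, 0.0174 and 0.00360 in the exact binomial tests, so it was not called. Its share of the transcript was 44.4% (13.7 to 78.8), 66.7% (22.3 to 95.7) and 50.0% (21.1 to 78.9). In another relative, Hnrnpdl, the matching exon 4 had 2, 1 and 2 crosslinks, too few in the transcript for the test. In Hnrnpd and Hnrnpab this exon had the highest count of all internal exons of the transcript in each library, with 14 crosslinks in Hnrnpab exon 5 against 3 or fewer in each of its other internal exons. No 31-nt stretch of either exon is found elsewhere in the genome.

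There were 33 internal exons with 20 or more crosslinks, 3 or more of them in every library. After Rbm28 exon 7 the highest mean folds were those of Rbm27 exon 14 (4, 6 and 13 crosslinks in 120 nt, log2 fold 3.15 ± 1.41), Rbm28 exon 8, Hnrnpul1 exon 2 (6, 5 and 10 in 126 nt, 2.58 ± 0.73), Rbm25 exon 12, Hnrnpu exon 6 (15, 6 and 35 in 113 nt, 2.26 ± 0.23), Luc7l3 exon 8, Prpf4b exon 2 (12, 10 and 20 in 1197 nt, 2.10 ± 0.39), Hnrnpu exon 10 (25, 6 and 46 in 169 nt, 2.07 ± 0.62) and Hnrnph1 exon 3 (4, 12 and 5 in 156 nt, 2.06 ± 0.58). None of these 9 was called in all 3 libraries. Against internal exons alone their log2 folds were 0.52 to 2.26, with the lowest in Hnrnpu exon 10 (0.52), Hnrnpu exon 6 (0.72), Prpf4b exon 2 (0.81) and Luc7l3 exon 8 (1.03). Rbm27 exon 14 and Hnrnpul1 exon 2 missed the threshold in replicate 1 alone (adjusted p 0.312 and 0.144 in the exact binomial tests), and both Hnrnpu exons and Prpf4b exon 2 in replicate 2 alone (0.173, 0.525 and 0.194). With 2 or more libraries required, 14 member exons passed (2.24%), 7 of them in Hnrnpu, beside 0.814% over all internal exons. In replicates 1, 2 and 3 taken singly, 9, 20 and 32 member exons passed (1.44%, 3.21% and 5.13%), beside 0.767%, 1.93% and 2.40% over all internal exons. The member exons were also deeper: 88 of the 624 had an expected count of 1 or more in each library, beside 4877 of all 51233. These shares were not matched for depth.

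The 4 exons with the lowest adjusted p in replicate 2 passed the test there alone. Their density in replicate 2 is what chose them and is given as a description. Luc7l2 exon 4 (chr6:38566111-38566221, plus strand) had 1, 21 and 5 crosslinks in 111 nt, and held 51.2% (35.1 to 67.1) of the transcript's crosslinks in replicate 2 against 3.03% (0.0767 to 15.8) in replicate 1 and 13.9% (4.67 to 29.5) in replicate 3. Luc7l3 exon 8 (chr11:94187710-94187993, minus strand), which holds 26 GAA, had 4, 20 and 8, a share of 54.1% (36.9 to 70.5) in replicate 2 against 17.4% (4.95 to 38.8) and 15.4% (6.88 to 28.1). Rbm25 exon 12 (chr12:83715193-83715282, plus strand) had 6, 15 and 6 and exon 11 had 7, 21 and 13. The log2 folds by replicate were 0.34, 4.84 and 2.26 for Luc7l2 exon 4 and 1.54, 3.89 and 1.27 for Luc7l3 exon 8. They were 2.26, 3.56 and 1.22 for Rbm25 exon 12 and 1.18, 2.84 and 1.03 for Rbm25 exon 11. The other libraries also lay above the rest of the transcript, except replicate 1 of Luc7l2 exon 4. There the exon had 1 crosslink in 111 nt against 32 in the other 3039 nt, which is slightly less dense. Its fold of 0.34 is positive only through the constant added to each side. Of the 31-nt stretches of Luc7l2 exon 4, 29.6% occur elsewhere in the genome.

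**Figure D3:**
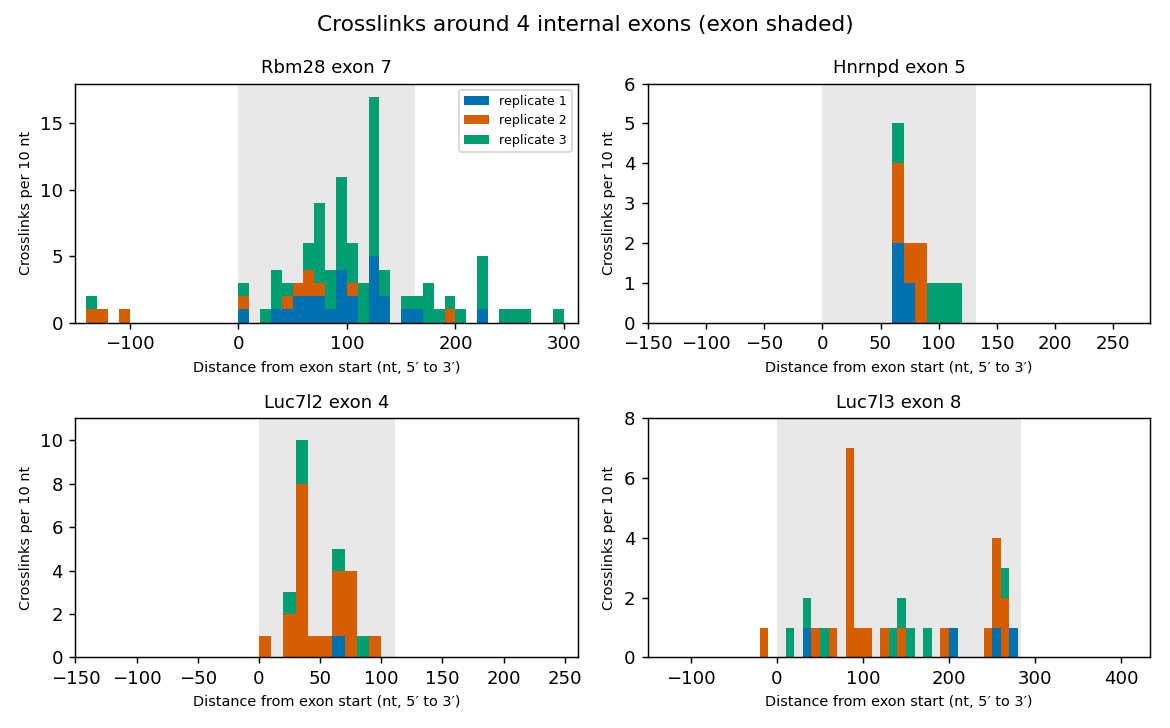
Crosslinks per 10 nt (stacked bars, 1 colour per replicate) against the distance from the exon start in 4 coding exons, shaded, with 150 nt of flank on each side. In Rbm28 exon 7 (77 crosslinks) replicates 1 and 3 are densest towards the 3′ end of the exon, in Hnrnpd exon 5 (12 crosslinks) all libraries lie downstream of the middle, and Luc7l2 exon 4 and Luc7l3 exon 8 are made up mainly of replicate 2 (21 of 27 and 20 of 32).

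Crosslinks of the members followed the GAA content of the exon. Internal exons with under 2 GAA per 100 nt held 0.970, 1.04 and 1.19 times the crosslinks that their length predicts from their transcript in replicates 1, 2 and 3. Exons with 2 to under 4 held 1.50, 1.53 and 1.55 times, those with 4 to under 6 held 2.01, 1.98 and 1.95 times, and the 66 exons with 6 or more held 2.57, 3.85 and 2.37 times. In all other protein-coding genes the same steps were 1.05 ± 0.110, 1.24 ± 0.0314, 1.62 ± 0.244 and 2.52 ± 0.742, so the ratio was higher at each step in both groups. The members lay above the other genes in each library from 2 GAA per 100 nt upwards, and in the top step this gap was smaller than the spread of replicates. Each ratio pools the crosslinks of all exons of a step, so genes with many crosslinks weigh most. Between 4 and under 6, exon 11 of Hnrnpu alone held 19, 8 and 61 of the members' 253, 213 and 590 crosslinks. The ratios were not computed without Hnrnpu. The steps were chosen after the values were seen and no test was made. GAA-rich exons were commoner in the members, with 10.6% of the exons tested at 6 or more against 6.72%. They came from 30 genes, among them Rbm25 with 6 and Luc7l2, Luc7l3 and Rbm6 with 4 each. Within 15 nt of GAAGA or AGAAG, exonic crosslinks of the members were 2.79, 4.94 and 2.98 times as dense as at all their other exonic positions. The ratio was 2.72, 3.94 and 2.69 in the other genes. These ratios pool all genes of a group and all their exons, UTRs included, so they do not compare positions within the same exon. Replicate 2 was the highest in both groups.

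**Figure D4:**
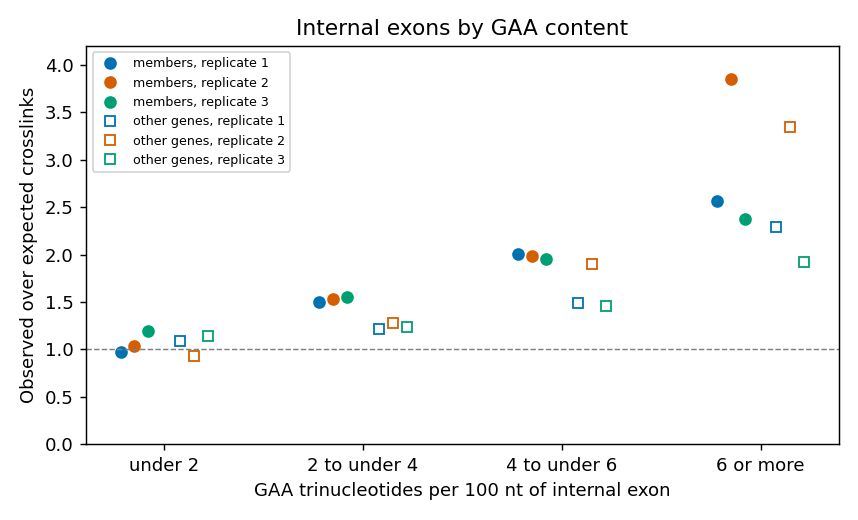
Observed over expected crosslinks of internal exons (linear axis, dashed line at 1) in 4 steps of GAA content, filled circles for the 103 genes and open squares for all other protein-coding genes, 1 point per replicate. The ratio is higher at each step in both groups, in the 103 genes from 0.970 to 1.19 in the lowest to 2.37 to 3.85 in the highest, where replicate 2 lies above the other two.

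Poison exons were taken as internal exons of annotated NMD transcripts that overlap no exon of a coding transcript of the gene. Those that overlap each other were merged, so a counted length can exceed that of a single exon. There were 81 of them in 48 of the 103 genes. Together they held 15, 13 and 19 crosslinks in 9213 nt, or 1.63, 1.41 and 2.06 per kb, below the 2.44, 2.48 and 5.29 per kb of coding-transcript exons of the same genes and above the introns. Relative to introns the density was 5.40, 3.36 and 5.25 times, beside 2.79, 2.51 and 3.41 times in the other genes, a ratio that rests on 47 crosslinks. No single exon stood out. In 52 of the 81 no crosslink was found, 17 had 1, 8 had 2, and the highest count was 4, in an exon of Hnrnpa2b1 (0, 2 and 2 in 136 nt) and in one of Prpf39 (1, 2 and 1 in 296 nt). None reached the 5 crosslinks required of a named exon, so these 2 are named after their values were seen.

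Of 51 NMD-only exons of members that could be tested, 0 were called in either direction by the exact binomial test, and 0 had an adjusted p under 0.05 in any single library. At an unadjusted p under 0.05 in all 3 libraries the count was 0 as well, and limma on the log2 folds called 8 (15.7%, beside 24.7% over all such exons), of which 5 had no crosslink in any library and owe their fold to the 0.5 added. Over all protein-coding genes 0.0792% of 2526 such exons were called as denser, and these were the poison exons of Tra2b and its paralogue Tra2a. The Tra2b exon, counted over 397 nt, had 12, 11 and 18 crosslinks (30.2, 27.7 and 45.3 per kb). The Tra2a exon, counted over 312 nt, had 14, 51 and 20 (44.9, 163 and 64.1 per kb). Among the other splicing genes, Srsf genes included, these 2 were likewise the called ones of 54 tested. Depth limited the member exons: 5 of the 51 had an expected count of at least 1 in each library, so a small enrichment could be missed in the rest. Poison exons that the annotation does not hold were not counted. Nor were annotated exons of NMD transcripts that overlap an exon of any coding transcript of the gene. Hnrnph3 with 30 NMD transcripts and Hnrnpk with 29, for example, had 0 NMD-only exons, so the result does not cover them.

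Introns were set against the other introns of the same gene. Of 415 member introns tested, 2 were called as denser (0.482%) and 0 as less dense (6 and 1 at an unadjusted p under 0.05), beside 0.323% called as denser over all 66334 introns tested. Intron 4 of Snrnp40, which encodes a WD-repeat protein of U5 snRNP, had 13, 18 and 14 crosslinks in 8485 nt, against 2, 7 and 5 in the other 17011 nt. It spans chr4:130262148-130271838. All 3 libraries were higher in it, with a log2 fold of 2.71 ± 0.63 and a largest adjusted p of 0.0301, and it was not called when genes with under 20 intronic crosslinks were tested too. Together with the exons of non-coding transcripts inside it, the intron had 20, 24 and 22 crosslinks in 9691 nt, of which an NMD-only exon had 1, 1 and 0.

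Intron 1 of Luc7l2 (chr6:38528844-38547444) had 32, 56 and 49 crosslinks in 12296 nt free of annotated exons, against 17, 29 and 27 in 32767 nt of its other introns. Of all crosslinks in counted introns it held 65.3%, 65.9% and 64.5%, and the log2 fold of 2.31 ± 0.04 hardly varied (largest adjusted p 1.61e-05). Exons of non-coding Luc7l2 transcripts, all counted within the same intron, had a further 26, 66 and 41 crosslinks in 5981 nt. Their 7.41 ± 3.38 crosslinks per kb compare with 5.75 ± 0.809 in coding-transcript exons of the gene and 1.55 ± 0.416 in introns. The 3 kb between 4000 and 7000 nt from the gene start, a window picked after seeing the profile, held 16, 65 and 27 crosslinks, 14.4%, 33.3% and 16.5% of the gene's total in 5.13% of its length. Replicate 2 was the highest there. The 2 NMD-only exons annotated within the intron had 1 crosslink each, and both lie downstream of that window. After Luc7l2, the most crosslinks in exons of non-coding transcripts were found in Rbm25 (30, 46 and 39), Rbm5 (8, 21 and 28), Hnrnpu (15, 19 and 19) and Rbm39 (11, 6 and 29).

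**Figure D5:**
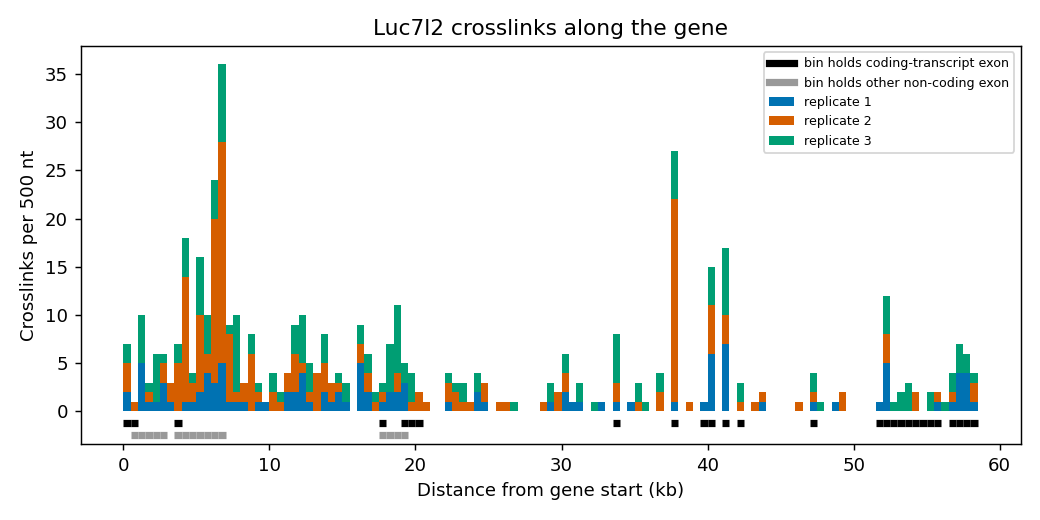
Crosslinks per 500 nt (stacked bars, 1 colour per replicate) along Luc7l2 against the distance from the gene start in kb; black marks show bins with exon of a coding transcript and grey marks bins with exon of a non-coding transcript. The signal between 4000 and 7000 nt (16, 65 and 27 crosslinks) is mainly in non-coding exon sequence of intron 1, and the tall bin near the middle of the gene holds exon 4, where replicate 2 has 21 of 27.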

How the data were processed

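The deposited files give, for every crosslinked nucleotide and strand, a raw count of unique cDNAs, which the authors had made with the iMAPS platform. The submitters' processing notes name Trim Galore 0.6.7, Bowtie 1.3.1, STAR 2.7.9a, UMI-tools 1.1.2 and the build mm39, the same assembly as GRCm39. The handling of reads with several matches was not given in the sources used here, and genes with near-identical copies (31 of the 103 have over 10% of their 31-nt stretches elsewhere in the genome) may have lost or gained crosslinks. The deposited counts were used per replicate as they stood in the tests and scaled to CPM for levels, and minimum counts refer to the sum over the 3 libraries. Intervals and the limit of 3 counts cover counting error only, and p-values within a library measure the spread of crosslinks over sequence, not between animals.

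Crosslinks were counted by strand over GENCODE vM39 in Python 3.11.15 (numpy 2.4.6, scipy 1.17.1). Intron bases that overlap an exon of another gene on the strand were left out, and exon bases shared with one were kept, which held 92 of the 5629 exonic crosslinks of the members. Exons of coding transcripts came first, then NMD-only exons, exons of other non-coding transcripts and introns. Exact binomial tests compared exon with intron, exon with the other canonical exons, and intron with the other introns, per library, with Benjamini-Hochberg adjustment over all protein-coding genes and at least 20 crosslinks over the 3 libraries. The code was tested on simulated data. Alternatives are given in the closing section, including limma 3.58.1 in R 4.3.3.

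The members and lists were chosen with earlier results of these data known. The genes named by rule were the 10 members with the highest exonic CPM, the 5 with the highest CPM per kb, called NMD-only exons or else the 5 highest with at least 5 crosslinks, the 10 internal exons with the highest fold among those with at least 20 crosslinks and 3 per library, up to 5 called introns, the 5 longest members without exonic crosslinks, and Tra2a and Tra2b. Of the items these rules pick, 1 gene is not reported here. Other members named were picked after their values were seen.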

Additional observations from a re-analysis of the deposited data

How the results depend on the processing

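With each position counted once, with non-coding exons counted as intron, without a minimum or with any 1 replicate left out, between 31 and 38 members had denser exons than introns, against 34 as reported. Scaled to the library total, in place of crosslinks in protein-coding genes, the summed exonic level of the members was 4013 CPM against 6118 ± 2025, and without 1 replicate it was 5038 to 7045. For internal exons the 2 calls became 1, that of Rbm28 exon 7, with internal exons alone as the reference and again 1 without a minimum. They became 227 of 624 with limma on the log2 folds, of which 146 were at 0 in at least 1 library, and limma called 43.5% of all internal exons. Leaving out 1 replicate gave 1 to 8 calls: 7 without replicate 1 (adding Hnrnpu exons 3 and 5, Rbm27 exon 14, Prpf38b exon 5 and Hnrnpul1 exon 2), 8 without replicate 2 (adding 5 exons of Hnrnpu and Prpf4b exon 2) and 1 without replicate 3. Rbm28 exon 7 was called in each of these alternatives. As observed over expected crosslinks of the whole transcript, with 0.5 added to both, the log2 fold fell from 4.18 to 3.07 for Rbm28 exon 7 and from 5.12 to 2.68 for Hnrnpd exon 5, and the other 9 exons ranked had 1.40 to 2.19. For NMD-only exons the count was 0 in all but limma, which gave 8. For introns the 2 calls became 1 (Luc7l2) without a minimum and 1 (Snrnp40) with first introns left out, and leaving out 1 replicate gave 2 to 4, the 4 without replicate 2 (adding Hnrnpm intron 5 and Rbm39 intron 3). The motif ratio of the members was 3.57 ± 1.19, and 2.89 to 3.96 over replicates left out. The log2 folds of Hnrnpd exon 5 and of the exons ranked stayed above 0 in all these alternatives. The median over the members' internal exons did not: it was 1.11, against -0.04 with 0.5 added to observed and expected crosslinks. No paired analysis was possible because there is 1 group. Depth is a further limit: 88 of the 624 internal exons and 5 of the 51 NMD-only exons had an expected count of 1 or more in each library.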
